A study of Bos taurus with 16 samples.

Results

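Livers of early lactating dairy cows were compared by their level of HSPA5, the gene of the endoplasmic reticulum (ER) chaperone BiP. The 16 cows of the series fell into an FGF21 high and an FGF21 low group of 8 cows each, which the study had picked from a larger herd for their liver FGF21 level. Within each of these groups the cows were ranked by the HSPA5 signal on the array, and the upper 4 cows (HSPA5 high) were set against the lower 4 cows (HSPA5 low), which gave 8 HSPA5 high and 8 HSPA5 low cows of 16 in all. All animals were multiparous female Holstein cows, received the same total mixed ration and gave liver RNA in week 1 postpartum, measured as 1 array per cow. No cow was treated to change HSPA5. The classes rest on a gene measured on the same arrays, so the differences below describe which transcripts varied together with HSPA5 between cows.

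The ER folds proteins that hepatocytes secrete, such as albumin and the apolipoproteins. BiP is the HSP70 chaperone of this compartment. It works with J-domain proteins, which bring clients and stimulate its ATPase, with nucleotide exchange factors, which release the client, and with the partner chaperone HSP90B1 (GRP94). When unfolded proteins accumulate, the sensors EIF2AK3 (PERK), ERN1 (IRE1) and ATF6 start the unfolded protein response (UPR), of which HSPA5 is a textbook target gene, and early lactation is a time at which this response has been described in the liver of dairy cows.

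HSPA5 is represented by 1 transcript cluster of 20 probes on chromosome 11, 96115225 to 96119266 in the coordinates of the deposited sheet, a sheet for which the sources used here name no genome build. All values are log2 signals, so that 1 unit is a doubling. In the FGF21 high group, HSPA5 was 12.10, 11.82, 11.56 and 11.44 in the HSPA5 high cows, against 11.20, 11.08, 10.87 and 9.90 in the HSPA5 low cows. In the FGF21 low group it was 11.09, 11.01, 10.9998 and 10.78 in the HSPA5 high cows, against 10.74, 10.36, 10.27 and 9.85 in the HSPA5 low cows. The ranking was thus not equally sharp in both groups. The cows on either side of the boundary differed by 0.24 where FGF21 was high and by only 0.039 where it was low, and the class means differed by 0.97 (1.96-fold) and by 0.67 (1.59-fold). Over both groups, the HSPA5 high class averaged 11.35 ± 0.46 and the HSPA5 low class 10.53 ± 0.52 (SD, n = 8 each). The classes overlapped across groups, because 3 HSPA5 low cows of the FGF21 high group lay above the HSPA5 high cow with the lowest signal. These values chose the cows and carry no test.

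**Figure D1:**
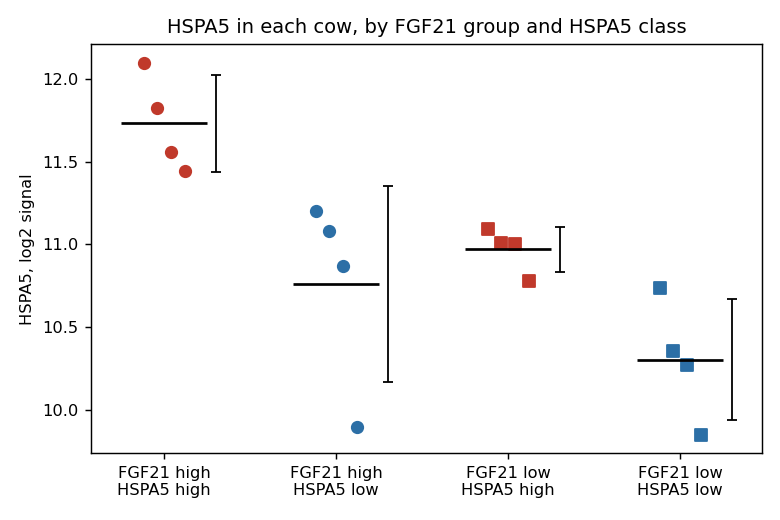
HSPA5 log2 signal (vertical axis) in each of the 16 cows, by FGF21 group and HSPA5 class. Points are cows, horizontal lines are means and bars are 1 SD of 4 cows. The classes are separated by definition, by 0.24 in the FGF21 high group and by 0.039 in the FGF21 low group.

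FGF21, the hepatokine on which the study chose its cows, had no common direction between the HSPA5 classes of the groups. In the FGF21 high group it was 8.69, 6.81, 7.08 and 7.08 in HSPA5 high cows, against 6.71, 6.16, 7.62 and 8.10 in HSPA5 low cows. Among FGF21 low cows it lay between 4.78 and 5.39 in HSPA5 high and between 5.38 and 5.51 in HSPA5 low cows. The log2 difference was 0.27 in the FGF21 high group, -0.45 in the FGF21 low group and -0.09 over both groups (95% interval -0.65 to 0.48). Cows were ranked within the FGF21 groups, so the HSPA5 classes do not carry a difference between those groups. HSPA5 itself averaged 11.25 ± 0.67 in the FGF21 high and 10.64 ± 0.44 in the FGF21 low group (SD, n = 8 each).

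Across the 20420 other transcripts, limma with the FGF21 group as a block found no transcript that differed between HSPA5 high and HSPA5 low cows at an adjusted p under 0.05, in either direction (0 higher, 0.0%, and 0 lower, 0.0%). The smallest adjusted p in limma was 0.600. At p under 0.05 without adjustment, 350 transcripts (1.71%) were higher and 475 (2.33%) were lower in HSPA5 high cows. Both together made 825 transcripts or 4.04%. With a fold change above 1.2 added, 132 (0.646%) were higher and 131 (0.642%) lower. These percentages are the background against which the counts of named groups of genes are given below, and "higher" and "lower" counts refer to p under 0.05 without adjustment throughout. Of the 825 transcripts, 42.4% were higher. That share was 61.1% with each array's median subtracted and 53.2% after a second quantile normalization, so the balance of directions over the genome depends on the scaling.

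Partners of HSPA5 in the ER, listed with earlier results of these data known, had a larger share of higher members than this background. Of 17 measured members of the ER HSP70 system, 8 were higher (47.1%) and 2 lower (11.8%) in HSPA5 high cows, and the median log2 difference was 0.18, against -0.01 over all transcripts. The platform's own annotated ER lists, given further below, had smaller shares of higher members. They ranged from 0 of 7 genes for the ER chaperone complex to 3 of 16 (18.8%) for the unfolded protein response. Within the ER HSP70 system, the members with the largest differences were MANF, HYOU1, DNAJB9 and DNAJB11.

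MANF, a small ER protein that binds BiP and is secreted under ER stress, differed most. In the FGF21 high group it was 9.30, 8.88, 8.58 and 8.28 in the HSPA5 high cows, against 8.21, 8.08, 7.82 and 6.68 in the HSPA5 low cows, each listed in falling order of HSPA5. In the FGF21 low group it was 8.07, 7.92, 7.90 and 7.55 in the HSPA5 high cows, against 7.62, 7.30, 7.04 and 6.86 in the HSPA5 low cows. All 8 FGF21 high cows had the same order by MANF as by HSPA5, and among FGF21 low cows only the pair of cows beside the boundary changed places. Of 20420 transcripts, 3 had all 7 neighbouring pairs of the FGF21 high group in HSPA5 order, and 0 had all 7 in the FGF21 low group. MANF alone had all 7 in the FGF21 high group and at least 6 of 7 in the FGF21 low group. That cut-off is the pattern of MANF itself, so being the only one is no separate support. The log2 difference of MANF was 0.86 (SE 0.20, 1.81-fold). Its p was 0.0012 in a two-sided exact permutation within the FGF21 groups, which can give no p below 0.00041.

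DNAJB11 (ERdj3), a soluble J-domain co-chaperone of BiP, was 8.76, 8.50, 8.26 and 8.15 in HSPA5 high cows of the FGF21 high group, against 7.97, 7.83, 7.72 and 7.12 in its HSPA5 low cows. The signals of the FGF21 low group were 7.84, 7.65, 7.67 and 7.50 in HSPA5 high cows, against 7.51, 7.42, 7.49 and 7.05 in HSPA5 low cows. The classes did not overlap in the FGF21 high group and overlapped by 1 cow in the FGF21 low group. The log2 difference was 0.53 (SE 0.13, exact permutation p = 0.00082).

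DNAJB9 (ERdj4), a J-domain protein known to hold the sensor ERN1 inactive together with BiP, was 8.93, 8.45, 8.83 and 8.30 in HSPA5 high cows of the FGF21 high group, against 7.99, 7.82, 7.88 and 7.40 in HSPA5 low cows. Cows of the FGF21 low group had 7.94, 8.01, 8.14 and 7.88 in the HSPA5 high class, against 8.01, 7.70, 7.75 and 7.47 in the HSPA5 low class. Here the classes were apart in the FGF21 high group and overlapped in the FGF21 low group. The log2 difference was 0.56 (SE 0.13, exact permutation p = 0.0016).

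HYOU1 (GRP170), a nucleotide exchange factor of BiP and a chaperone in its own right, was 9.93, 9.40, 9.69 and 9.04 in HSPA5 high cows of the FGF21 high group, against 8.81, 8.70, 8.72 and 7.59 in HSPA5 low cows. Its values among FGF21 low cows were 8.87, 8.54, 8.82 and 8.25 in HSPA5 high cows, against 8.36, 8.25, 8.83 and 7.75 in HSPA5 low cows. The classes were apart in the FGF21 high group and overlapped in the FGF21 low group, where 3 HSPA5 low cows lay above the lowest HSPA5 high cow and replicate 2, at 8.83, lay close to the highest. The log2 difference was 0.69 (SE 0.20, exact permutation p = 0.0078).

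The other members that were higher had smaller differences. CRELD2, an ER stress-inducible protein, averaged 7.58 ± 0.46 in HSPA5 high and 7.21 ± 0.33 in HSPA5 low cows (SD, n = 8 each). SEC63, the membrane-bound J-domain protein of the translocon, averaged 9.07 ± 0.18 in HSPA5 high and 8.81 ± 0.07 in HSPA5 low cows, and HSPA13, a further HSP70 protein of microsomes, averaged 8.36 ± 0.22 and 8.08 ± 0.17. CRELD1 differed by 0.17 and lay at the threshold.

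Both members that were lower belong to the same system. SIL1, a nucleotide exchange factor of BiP like HYOU1, lay between 7.34 and 7.71 in HSPA5 high cows and between 7.47 and 7.96 in HSPA5 low cows, a log2 difference of -0.17 (SE 0.08, exact permutation p = 0.033). CDNF, the paralogue of MANF, had a log2 difference of -0.21 (SE 0.10, exact permutation p = 0.063) at a low signal, between 3.86 and 4.33 in HSPA5 high cows and between 4.07 and 4.84 in HSPA5 low cows. The exchange factors HYOU1 and SIL1, and the paralogues MANF and CDNF, thus had opposite signs between the classes. With HSPA5 as a continuous measure (below), neither SIL1 (slope -0.09, SE 0.08) nor CDNF (slope -0.10, SE 0.10) passed p under 0.05 without adjustment.

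**Figure D2:**
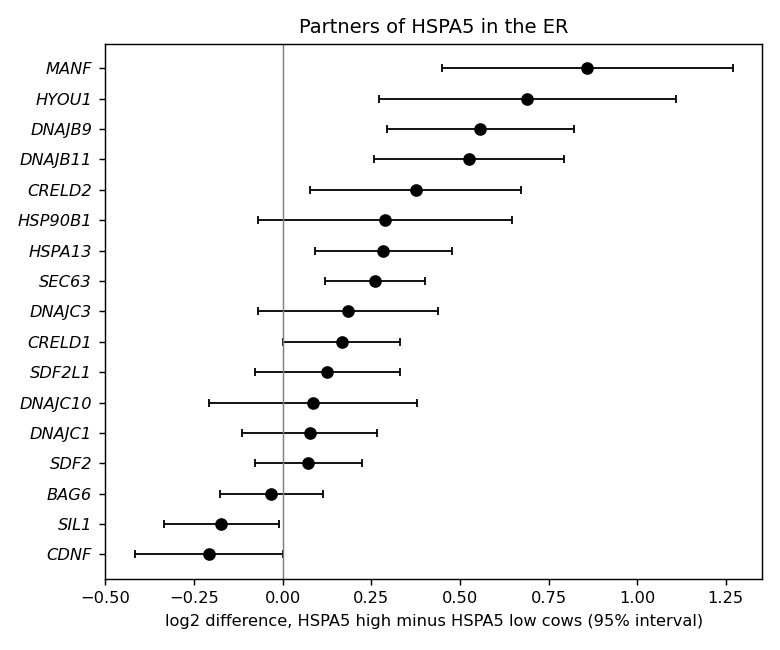
Log2 difference between HSPA5 high and HSPA5 low cows (horizontal axis) with its 95% interval from limma, for the 17 measured partners of HSPA5 (vertical axis), 8 cows per class. MANF (0.86) has the largest difference, and SIL1 (-0.17) and CDNF (-0.21) lie below 0.

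The remaining 7 members did not reach the threshold, among them 3 of the most familiar. HSP90B1 was 12.26, 12.12, 12.38 and 12.15 in HSPA5 high cows of the FGF21 high group, against 11.69, 11.71, 11.67 and 11.06 in its HSPA5 low cows. The FGF21 low cows had 11.60, 11.59, 11.67 and 11.66 in the HSPA5 high class, against 11.54, 11.40, 12.61 and 11.45 in the HSPA5 low class. The 12.61 of replicate 2 of the FGF21 low group was the highest HSP90B1 signal of all 16 cows, in a cow with one of the lowest HSPA5 signals, and the log2 difference over both groups was 0.29 (95% interval -0.07 to 0.65). DNAJC3 (p58IPK), a J-domain protein that also restrains PERK, had a difference of 0.18 (-0.07 to 0.44), and SDF2L1, a partner of the ER J-domain proteins, of 0.13 (-0.08 to 0.33). SDF2, DNAJC1, DNAJC10 and BAG6 differed by 0.07, 0.08, 0.09 and -0.03. BAG6 is a cytosolic chaperone that hands tail-anchored and misplaced proteins on, and so differs from the rest of the list.

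HSPA5 was then used as a continuous measure over the 16 cows, with the FGF21 group as a block, so that no cow depends on a boundary. In this fit 15 transcripts (0.0735%) had an adjusted p under 0.05 in limma, all of them rising with HSPA5, and 0 fell. At p under 0.05 without adjustment, 503 rose and 506 fell. Of the 15, 9 belong to the ER lists. They were MANF, DNAJB11, HYOU1, DNAJB9 and CRELD2 of the HSP70 system, SYVN1 and SELK of ER-associated degradation, GMPPB of N-glycan synthesis and ATP2A2 of ER calcium. The 6 others were HSPH1, SLC33A1, LOC508547, THAP5, EIF5A2 and AMIGO3.

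The slopes are in log2 units per log2 unit of HSPA5. MANF had a slope of 1.10 (SE 0.06, adjusted p = 4.8e-09 in limma). HYOU1 had a slope of 0.90 (SE 0.12), DNAJB11 of 0.67 (SE 0.06), HSPH1 of 0.66 (SE 0.09) and DNAJB9 of 0.63 (SE 0.09), with adjusted p-values in limma between 2.2e-05 and 0.0023. All 4 estimates were below that of MANF. MANF, DNAJB11, HSPH1 and SLC33A1 passed in each of 16 fits that left out 1 cow. AMIGO3 passed in only 5 of these 16 fits, EIF5A2 in 7 and THAP5 in 12. The number of transcripts that passed ranged from 5 without replicate 5 of the FGF21 high group, and 7 without replicate 1 of that group, to 20 without replicate 2 of the FGF21 low group.

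**Figure D3:**
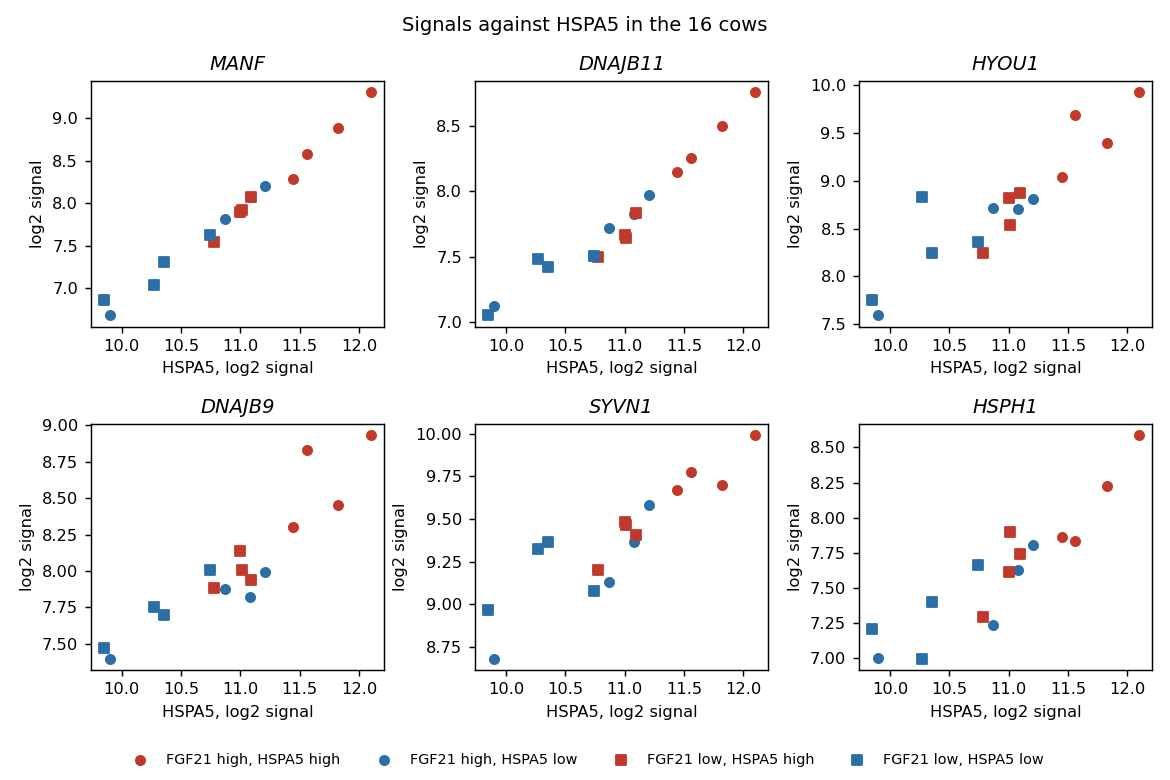
Log2 signal of 6 genes (vertical axes) against the log2 signal of HSPA5 (horizontal axes) in the 16 cows. Circles are FGF21 high and squares FGF21 low cows, red HSPA5 high and blue HSPA5 low. MANF and DNAJB11 follow HSPA5 closely over the whole range, and HYOU1 has an FGF21 low cow, replicate 2, at 8.83 above the trend.

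SLC33A1, the acetyl-CoA transporter of the ER membrane, was 8.91, 8.72, 8.49 and 8.52 in HSPA5 high cows of the FGF21 high group, against 8.32, 8.10, 8.25 and 7.92 in HSPA5 low cows. FGF21 low cows had 8.41, 8.31, 8.40 and 8.11 in the HSPA5 high class, against 8.07, 8.04, 8.07 and 7.45 in the HSPA5 low class. It was one of 4 transcripts (0.0196%) whose higher values did not overlap between the classes in either FGF21 group, next to FKBP14, TMEM39A and the kinase HIPK1 (0.21, SE 0.06). MIR2284F, LOC614705 (-0.34, SE 0.08) and DUXA (-0.24, SE 0.07) were the 3 transcripts (0.0147%) that were lower without overlap. Random assignment of cows to classes within the FGF21 groups gives a share of 0.0204% in each direction. Both counts are near that share, so the lack of overlap alone does not set these transcripts apart. HIPK1, LOC614705 and DUXA were picked after their values were seen.

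Some of the 15 transcripts are neighbours on the chromosome. On chromosome 4, DNAJB9 (59970936 to 59973819, minus strand) and THAP5 (59975919 to 59982005, plus strand) lie head to head with 2100 bases between them. On chromosome 22, GMPPB (51052512 to 51054901) and AMIGO3 (51056714 to 51059144) lie on the plus strand with 1813 bases between them. THAP5 had a slope of 0.63 (SE 0.11) and DNAJB9 of 0.63, and AMIGO3 had 0.48 (SE 0.09) and GMPPB 0.55 (SE 0.07), so the slopes within each pair differed by less than their standard errors.

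The lists of the following ER steps had smaller shares of higher members than the HSP70 system. All ER lists together held 239 measured genes, of which 42 were higher and 4 lower in HSPA5 high cows. Of the 42, 40 had a positive log2 difference within each FGF21 group, whether or not it passed the threshold there. The 42 were picked on the difference averaged over both groups. That choice itself favours a positive sign in each group, so this count is no separate support.

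**Figure D4:**
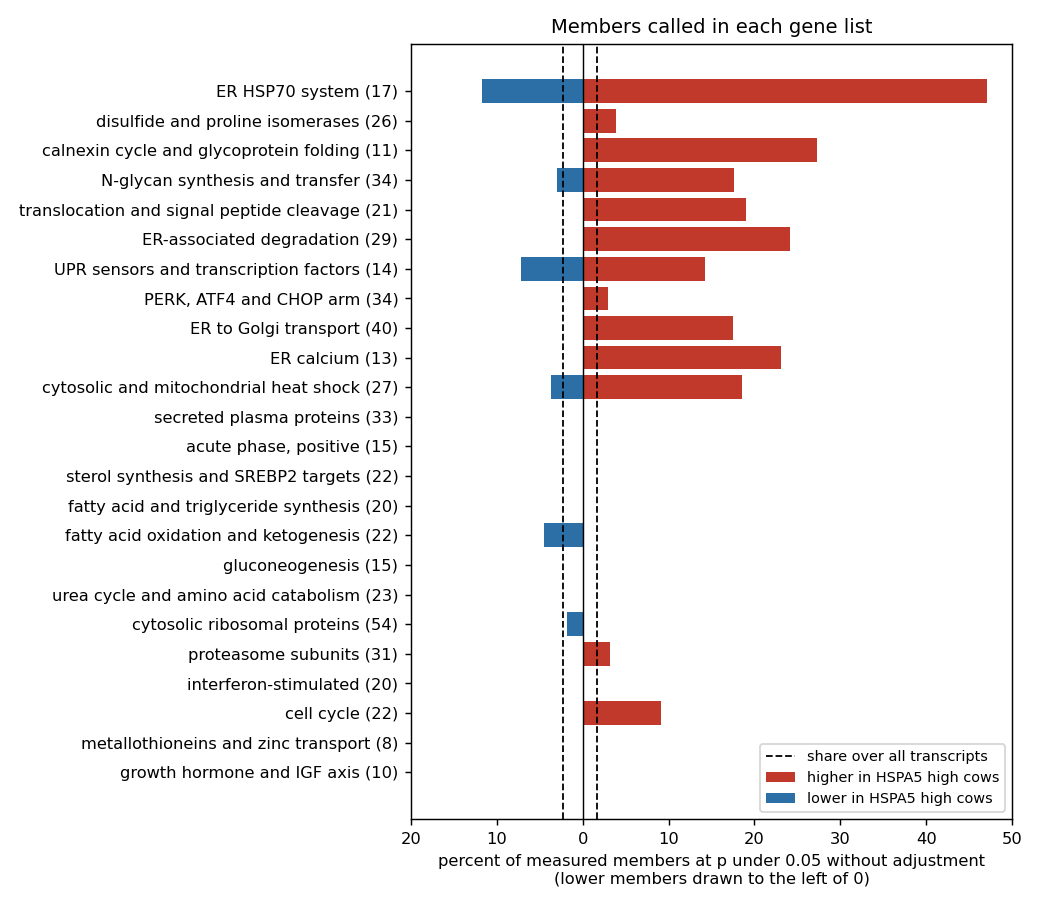
Percent of the measured members of each list (number in brackets) at p under 0.05 without adjustment. Red bars to the right of 0 are members higher in HSPA5 high cows, blue bars to the left are members lower in HSPA5 high cows, and dashed lines are the shares over all transcripts, 1.71% and 2.33%. The ER HSP70 system has the longest bar (47.1%), and the lists of the PERK arm and of liver metabolism lie near 0.

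ER-associated degradation, which returns misfolded proteins to the cytosol, had 7 of 29 members higher (24.1%) and none lower. HERPUD1, which organises the degradation complex, was 9.52, 8.92, 8.96 and 9.18 in HSPA5 high cows of the FGF21 high group, against 8.40, 8.81, 8.62 and 8.62 in HSPA5 low cows. HERPUD1 in the FGF21 low group was 9.17, 8.87, 8.37 and 8.48 in HSPA5 high cows, against 8.31, 8.39, 8.21 and 8.00 in HSPA5 low cows. Its log2 difference of 0.51 (SE 0.11, exact permutation p = 0.00082) was nearly the same in both FGF21 groups, 0.53 and 0.50. SYVN1 (HRD1), the ubiquitin ligase of this route, averaged 9.59 ± 0.25 in HSPA5 high and 9.19 ± 0.28 in HSPA5 low cows (SD, n = 8 each). SELK (SELENOK), a selenoprotein of the same complex, averaged 6.94 ± 0.31 and 6.61 ± 0.27. SEL1L, the partner of SYVN1, and EDEM1 and EDEM3, which trim mannose from misfolded glycoproteins, were higher by 0.21, 0.20 and 0.22.

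The calnexin cycle retains glycoproteins until they are folded, and 3 of its 11 members were higher (27.3%). Malectin, MLEC, was higher by 0.29 (SE 0.10), the lectin chaperone calnexin, CANX, by 0.22 (SE 0.08) and the folding sensor UGGT1 by 0.20 (SE 0.08). Calreticulin, CALR, the soluble counterpart of calnexin, had a difference of 0.12 with a 95% interval of -0.13 to 0.37.

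N-glycan synthesis and transfer had 6 of 34 members higher (17.6%) and 1 lower. Those higher include enzymes that make sugar nucleotides, namely GMPPB for GDP-mannose, at 0.43 (SE 0.12), and PGM3 and UAP1 for UDP-N-acetylglucosamine, at 0.30 (SE 0.10) and 0.35 (SE 0.08). UAP1 was 9.34, 9.42, 9.28 and 9.38 in HSPA5 high cows of the FGF21 high group, against 8.75, 8.82, 8.81 and 8.66 in HSPA5 low cows, while in the FGF21 low group it lay between 8.55 and 8.79 in HSPA5 high cows and between 8.52 and 8.70 in HSPA5 low cows. The classes of UAP1 were thus far apart in the FGF21 high group and overlapped in the FGF21 low group. STT3A and STT3B, the catalytic subunits of the oligosaccharyltransferases, were higher by 0.25 and 0.20, and ALG13 was lower, with a log2 difference of -0.20 (SE 0.09).

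Translocation and signal peptide cleavage had 4 of 21 members higher (19.0%) and none lower. They were the translocon subunits SEC61G (0.29, SE 0.09) and SEC61B (0.23, SE 0.10), the translocon-associated SSR1 (0.15, SE 0.06) and SRP72 (0.24, SE 0.10) of the signal recognition particle. SERP1, which associates with the translocon under stress and was among the 15 transcripts with the smallest p, lay between 9.31 and 10.02 in HSPA5 high and between 9.13 and 9.64 in HSPA5 low cows, a difference of 0.37 (SE 0.09).

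ER to Golgi transport had 7 of 40 members higher (17.5%). A positive difference was seen in 35 of the 40, beside 9075 of all 20420 transcripts. The vesicle tether USO1 was higher by 0.25 (SE 0.07), the golgin GOLGB1 by 0.23 (SE 0.07), the cargo receptor TMED2 by 0.24 (SE 0.08), the COPII coat proteins SEC23B and SEC24D by 0.30 (SE 0.11) and 0.25 (SE 0.09) and the coat exchange factor PREB (SEC12) by 0.24 (SE 0.09). All of these differences are small in fold terms beside those of MANF and HYOU1. Among 13 genes of ER calcium, the pump ATP2A2 (SERCA2) and the calcium-binding proteins CALU and RCN2 were higher, by 0.35 (SE 0.11), 0.21 (SE 0.08) and 0.22 (SE 0.09), while the median over the 13 was -0.02.

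Disulfide and proline isomerases had few members higher over both groups. Of 26 members, 1 was higher (3.85%), the proline isomerase FKBP14, at 6.60, 6.63, 6.78 and 6.60 in HSPA5 high cows of the FGF21 high group, against 6.27, 6.33, 6.50 and 6.31 in HSPA5 low cows. Its FGF21 low values were 6.63, 6.28, 6.48 and 6.39 in HSPA5 high cows, against 6.15, 6.27, 5.99 and 6.19 in HSPA5 low cows. FKBP14 was apart in both groups. The abundant protein disulfide isomerases P4HB, PDIA3, PDIA4 and PDIA6, which form disulfide bonds in secreted proteins, had log2 differences of 0.02, 0.05, 0.10 and 0.13, with 95% intervals of -0.17 to 0.20, -0.20 to 0.30, -0.31 to 0.51 and -0.09 to 0.35 (P4HB, PDIA3 and PDIA4 were picked after their values were seen). Within the FGF21 high group, 8 of the 26 isomerases were higher, and within the FGF21 low group 2. Without replicate 2 of the FGF21 low group, the differences were 0.09 for P4HB, 0.17 for PDIA3, 0.30 for PDIA4 and 0.23 for PDIA6, of which the last 3 passed p under 0.05 without adjustment.

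The sensors and transcription factors of the UPR went in both directions. Of 14 measured members, 2 were higher and 1 lower, with a median of 0.00. ERN1 had no transcript with its name. EIF2AK3 (PERK) averaged 7.94 ± 0.24 in HSPA5 high and 7.65 ± 0.16 in HSPA5 low cows, and CREB3L2, a membrane-bound factor that induces COPII genes, averaged 9.02 ± 0.24 and 8.74 ± 0.20 (SD, n = 8 each). CREB3, a factor of the same family, was lower, with a log2 difference of -0.19 (SE 0.08). XBP1 lay between 10.09 and 11.31 in HSPA5 high and between 10.24 and 11.21 in HSPA5 low cows, ATF6 between 8.82 and 9.24 and between 8.67 and 9.39, and ATF6B had a difference of -0.09 (SE 0.06). The remaining members, CREB3L1, CREB3L3, MBTPS1, MBTPS2, WFS1, NFYA, NFYB and NFYC, had log2 differences from -0.18 to 0.10. The array signal does not separate spliced from unspliced XBP1, and activation of ATF6 or PERK is not a change in transcript level.

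The list of the PERK, ATF4 and CHOP arm, which holds amino acid synthesis and stress genes, had 1 of 34 members higher (2.94%), the aminoacyl-tRNA synthetase EPRS (0.19, SE 0.08), and a median of -0.03. ATF4 had a difference of 0.18 (95% interval -0.01 to 0.36) and asparagine synthetase, ASNS, of -0.26 (-0.60 to 0.08). The stress genes DDIT3 (CHOP), TRIB3, CHAC1 and ATF3, chosen after their values were seen, differed by 0.04, 0.01, -0.11 and -0.08. DDIT3 averaged 7.26 ± 0.27 in HSPA5 high and 7.22 ± 0.17 in HSPA5 low cows, and the cows of both classes overlapped.

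Cytosolic and mitochondrial heat shock genes had 5 of 27 members higher (18.5%) and 1 lower. In the fit on continuous HSPA5, 12 of the 27 rose at p under 0.05 without adjustment and 0 fell. The ER HSP70 system had 9 of 17 rising in that fit, and all transcripts 503 of 20420. Rising with HSPA5 was thus not particular to the ER. HSPH1 (HSP110), a cytosolic exchange factor of HSP70, was 8.59, 8.23, 7.83 and 7.86 in HSPA5 high cows of the FGF21 high group, against 7.81, 7.63, 7.24 and 7.00 in HSPA5 low cows. In FGF21 low cows it was 7.74, 7.90, 7.62 and 7.29 in HSPA5 high cows, against 7.66, 7.40, 7.00 and 7.21 in HSPA5 low cows. The classes were apart in the FGF21 high group only, and the log2 difference was 0.52 (SE 0.14, exact permutation p = 0.0065). CHORDC1, a co-chaperone of HSP90, was higher by 0.30 (SE 0.09), and HSPA1L, at signals between 3.53 and 4.14, was lower, with a log2 difference of -0.25 (SE 0.08).

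The HSPA5 classes were less far apart for ER genes in the FGF21 low group than in the FGF21 high group. Within the FGF21 high group, 65 of the 239 ER genes were higher in HSPA5 high cows, beside 576 of all 20420 transcripts (2.82%), and within the FGF21 low group 11 were, beside 296 of all transcripts (1.45%). Of the 42 genes higher over both groups, 38 had the larger difference in the FGF21 high group. No matching count over all higher transcripts stands beside this number, so it does not set the ER genes apart. The median over the ER HSP70 system was 0.39 within the FGF21 high group and 0.09 within the FGF21 low group. The test of this difference, the interaction of HSPA5 class and FGF21 group in limma, gave 0 transcripts at an adjusted p under 0.05 and 1055 without adjustment, of which 655 (3.21%) had the larger difference in the FGF21 high group. Among the 239 ER genes, 24 did so, and 5 had the smaller one. In the HSP70 system there were 6 such genes of 17. For HSP90B1 the log2 difference was 0.69 among FGF21 high cows and -0.12 among FGF21 low cows, for HSPA13 it was 0.51 and 0.05, and for EDEM3 0.45 and -0.01. The HSPA5 classes themselves were farther apart in the FGF21 high group, 0.97 against 0.67, which goes in the same direction as these differences and whose part in them was not tested.

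**Figure D5:**
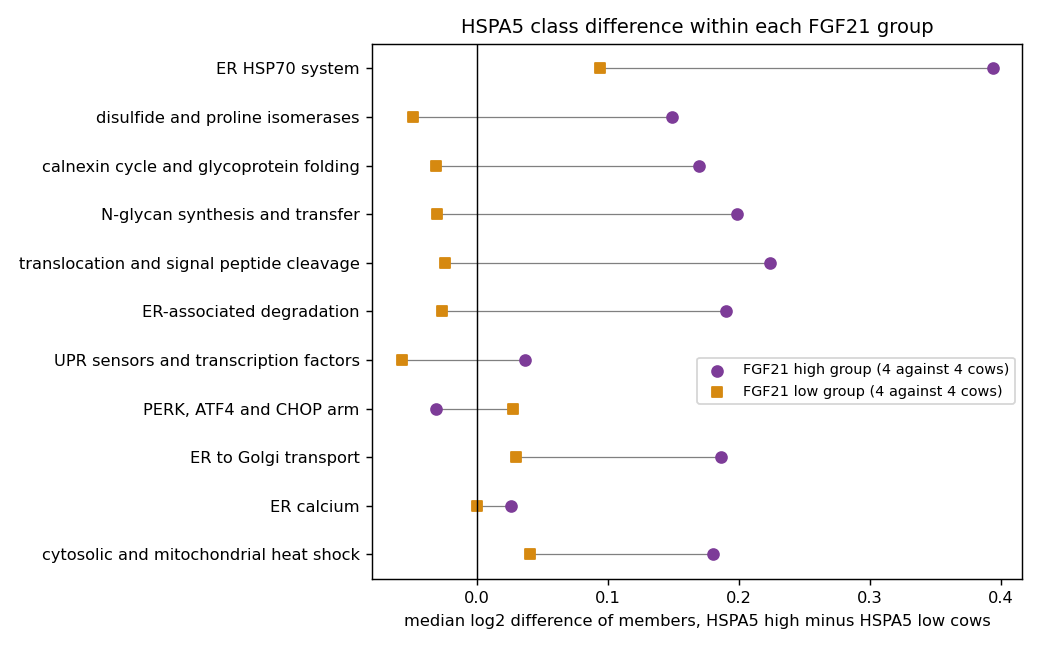
Median log2 difference between HSPA5 high and HSPA5 low cows (horizontal axis) over the members of each list (vertical axis), within the FGF21 high group (circles) and the FGF21 low group (squares), 4 against 4 cows in each. The median of the ER HSP70 system is 0.39 in the FGF21 high and 0.09 in the FGF21 low group.

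One cow bears on the comparison within the FGF21 low group. Replicate 2 of that group was in the HSPA5 low class with a signal of 10.27, the third lowest of all 16. Its mean over all 239 ER genes, 8.34, was nevertheless as high as the highest of the other cows, 8.34 in replicate 1 of the FGF21 high group, whereas the other HSPA5 low cows lay between 7.98 and 8.17. Its signals were 12.61 for HSP90B1, 12.01 for PDIA3, 10.99 for PDIA4 and 9.76 for DNAJC3, each the highest of the HSPA5 low class, but 7.04 for MANF and 6.28 for SELK, the lowest SELK signal of the 16 cows. The ER genes of this cow were thus not all on the side of its HSPA5 signal. The same cow had a mean of 8.62 over 20 interferon-stimulated genes, against 6.43 to 7.28 in the other 15 cows, with 9.70 for MX2 and 9.64 for ISG15. The part of this in the result was not tested. Without this cow, 77 ER genes and 606 transcripts were higher in HSPA5 high cows, 10 of them in the HSP70 system, and HSP90B1 differed by 0.45 and DNAJC3 by 0.30. None of these had an adjusted p under 0.05.

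Outside the ER, the secreted products of hepatocytes had no member past the threshold. Among 33 secreted plasma proteins the log2 differences lay between -0.10 and 0.07. Positive acute phase genes (15), sterol synthesis genes (22), fatty acid and triglyceride synthesis genes (20), genes of gluconeogenesis (15), urea cycle and amino acid catabolism genes (23), metallothioneins and zinc transporters (8) and genes of the growth hormone and IGF axis (10) also had none in either direction. The metallothioneins MT1A, MT1E and MT2A had large but imprecise differences of 0.72 (SE 0.42), 0.76 (SE 0.59) and 0.47 (SE 0.35). MT1E was picked after its value was seen. Of the 8 genes of that list, 5 had a positive difference, beside 9075 of all 20420 transcripts, and the median was 0.10. Fatty acid oxidation had 1 of 22 lower, the peroxisomal thiolase ACAA1 (-0.18, SE 0.08), and the proteasome 1 of 31 higher, PSMC4 (0.15, SE 0.07). The list of ribosomal proteins had 1 of 54 lower, RPL24 (-0.21, SE 0.10). That list does not hold RPL36, which was also lower and is named further below. Interferon-stimulated genes had no member past the threshold and a median of -0.22, with MX2 at -0.59, ISG15 at -0.49 and IFI6 at -0.59. Without replicate 2 of the FGF21 low group, these 3 differences were -0.17, -0.10 and -0.17. Of 22 cell cycle genes, 2 were higher, CDK1 (0.44, SE 0.19) and AURKB (0.21, SE 0.09), both at low signals. In the lists of the platform's own annotation, picked after seeing the data, 2 of 42 genes of the ER lumen were higher and 3 lower, 3 of 16 genes of the unfolded protein response were higher, ER-associated degradation had 4 of 35 higher and 1 lower, and 1 of 27 genes of the response to ER stress was higher. The annotated ER chaperone complex had 0 of 7 genes higher and 0 lower, with a median log2 difference of 0.007. Within the FGF21 high group, 9 of the 42 genes of the ER lumen were higher, and within the FGF21 low group 2.

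Further transcripts were among those with the smallest p. ENTPD7, a nucleotide hydrolase, lay between 7.80 and 8.51 in HSPA5 high and between 7.35 and 8.13 in HSPA5 low cows, a difference of 0.41 (SE 0.09). TMEM39A, a membrane protein of the ER, was 7.84, 7.82, 8.09 and 7.94 in HSPA5 high cows of the FGF21 high group, against 7.72, 7.50, 7.43 and 7.46 in HSPA5 low cows, and 7.99, 7.64, 7.73 and 7.73 in HSPA5 high cows of the FGF21 low group, against 7.47, 7.54, 7.58 and 7.55 in HSPA5 low cows. CPED1 (0.48, SE 0.11), GPRC5B (0.49, SE 0.12), TDRKH (0.35, SE 0.08) and GOLPH3L (0.34, SE 0.09), a Golgi protein, followed. MIR877, a microRNA precursor, had the largest difference of any transcript, 1.43 (SE 0.33), with a wide spread, between 4.27 and 5.58 in HSPA5 high and between 2.65 and 5.21 in HSPA5 low cows.

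Transcripts lower in HSPA5 high cows were mostly of low signal. Of the 475, 28.6% lay above the median signal of the array, against 57.7% of the 350 that were higher. The 15 named transcripts with the smallest p among them included the inhibitory immune receptor LAIR1 (-0.30, SE 0.07), STAC (-0.31, SE 0.08), MAGEB4 (-0.36, SE 0.09), the microRNAs MIR2284K (-0.53, SE 0.14) and MIR2284F (-0.54, SE 0.16), the cytoskeletal adaptor SORBS2 (-0.36, SE 0.10) and the ribosomal protein RPL36 (-0.26, SE 0.08). The others of the first 15, NRIP3, OR4K2, SLC25A53, PRSS50, OR2A25, KPRP, PDE6C and HSPA1L, had log2 differences from -0.39 to -0.24. SORBS2 had the highest signal of these 15, 8.76 ± 0.26 in HSPA5 high and 9.12 ± 0.23 in HSPA5 low cows (SD, n = 8 each).

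Array medians and cell type markers overlapped between the classes. The array medians lay between 6.25 and 6.30 in HSPA5 high and between 6.25 and 6.34 in HSPA5 low cows. The mean over 6 hepatocyte markers, such as ALB and TTR, lay between 11.78 and 12.01 in HSPA5 high and between 11.80 and 12.01 in HSPA5 low cows. Markers of endothelium, macrophages, stellate cells, cholangiocytes, lymphocytes, plasma cells, neutrophils and red cells had no member past the threshold, and 1 of 7 markers of muscle and fat, CKM, was lower (-0.23, SE 0.11). The tissue is bulk, so fewer cells of a type and less RNA per cell cannot be told apart. In the FGF21 low group the running numbers in the labels were 25 to 31 for the HSPA5 high and 7 to 21 for the HSPA5 low cows, so that HSPA5 class and running number cannot be told apart there. In the FGF21 high group they overlapped, at 1 to 26 and 2 to 23. With the running number as a covariate, 552 transcripts were higher and 592 lower, and MANF differed by 0.92. This fit takes a common slope for both FGF21 groups, so it cannot separate class from running number in the FGF21 low group.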

How the data were processed

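Liver RNA of 16 cows was hybridised to 1 Affymetrix bovine gene array per cow. The authors deposited log2 signals per transcript cluster, made with RMA in Affymetrix Expression Console 1.4 (RMA corrects background, quantile-normalises and summarises probes); the sheet used here is their SST-RMA table, in which a signal space transformation (SST), which widens the range of signals and so of fold changes, goes with RMA, and for which the sources used here name no genome build. A table rounded to 2 decimals served as an alternative. The number of arrays limits the precision. The paper also describes some RNA degradation, which it says can reduce the arrays' sensitivity and specificity, though it judged the integrity sufficient. No RNA quality value per cow entered the fits. Columns with the authors' means, fold changes and p-values between FGF21 groups were not used. limma 3.58.1 (R 4.3.3) was fitted to 20420 transcripts with FGF21 group and HSPA5 class as terms, with eBayes and Benjamini-Hochberg adjustment, and was tested on simulated data. Exact permutations exchanged cows within each FGF21 group (4900 assignments). Alternatives covered filters, blocks, scaling, the class rule and each cow left out. Symbols are those of the sheet, and 14673 transcripts matched the RefSeq gene table. Named genes came from the partners of HSPA5 and the UPR factors in full, the members with the smallest p of the other lists (6 for ER lists, 3 for the rest) and the 15 symbols with the smallest p in each direction; others are marked where they stand or passed the fit on continuous HSPA5. HSPA5, the classes and all lists were chosen with earlier results of these data known.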

Additional observations from a re-analysis of the deposited data

Results flagged for a closer look

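In each class of 8 cows, the gap of the highest or lowest cow to its nearest neighbour was set against the range of the class for every gene named with a value (Dixon's test at the 95% level). Of 208 such groups, 18 were marked, and chance marks about 1 in 20.

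In the HSPA5 low class, replicate 2 of the FGF21 low group was the highest cow for 12 genes. Its signal was 12.61 for HSP90B1 (11.06 to 11.70 in the other 7 cows), 9.76 for DNAJC3, 8.43 for BAG6, 7.26 for PDIA6, 9.59 for ERP44, 8.67 for UGGT1, 11.45 for TMED2, 12.0 for PDIA3 and 10.99 for PDIA4 (9.21 to 9.89 in the others). It was also the highest for the interferon-stimulated MX2 (9.70, against 6.15 to 7.15) and ISG15 (9.64, against 6.19 to 6.87), and for MIR2284F (5.82). HSPA5, MANF and DNAJB11 of this cow were not marked.

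Replicate 1 of the FGF21 low group, the cow with the lowest HSPA5 signal, was the lowest of the HSPA5 low class for SEC23B (7.62), SEC24D (8.56) and SLC33A1 (7.45). In the HSPA5 high class, the lowest cows stood apart for SDF2 (7.30, replicate 7 of the FGF21 low group), AURKB (4.54, replicate 5 of that group) and MT1A (9.30, replicate 6 of that group, against 11.21 to 12.77 in the others).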

How the results depend on the processing

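The count of 0 transcripts at an adjusted p under 0.05 held in limma under every alternative run except HSPA5 as a continuous covariate, which gave 15 higher and 0 lower, and by the methods' t-test, which gave 315 higher and 508 lower without adjustment. Counts below are at p under 0.05 without adjustment. Transcripts above the median signal alone, a smaller set of tests, gave 225 higher and 157 lower, and the running number as a covariate gave 552 higher. Subtracting array medians gave 306 lower. Within the FGF21 high group 576 were higher and 65 ER genes, and within the FGF21 low group 11 ER genes, 2 of them in the HSP70 system. Leaving out 1 cow gave 298 to 606 higher and 378 to 600 lower transcripts and 33 to 77 ER genes, with 7 to 10 in the HSP70 system. The highest counts of higher transcripts and of ER genes were those without replicate 2 of the FGF21 low group. Chosen after seeing the data, classes over both FGF21 groups gave 20 ER genes and 4 in the HSP70 system, and AURKB turned to -0.0094. Without both cows beside the class boundary, 38 ER genes were higher. EDEM3 turned to -0.008 within the FGF21 low group. The cause was not tested. Replicate numbers did not pair the cows, with correlations of deviations from -0.13 to 0.23, and a replicate block gave 422 higher and 396 lower, with 39 ER genes. The planned promoter motif lists were not run.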

Other observations

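Sterol and fatty acid synthesis genes had no member past the threshold over both FGF21 groups, but the sign of their medians differed between the groups. Over 22 sterol synthesis genes and SREBP2 targets the median log2 difference between HSPA5 high and HSPA5 low cows was -0.09 within the FGF21 high group and 0.17 within the FGF21 low group, and 3 of the 22 had an interaction with p under 0.05 without adjustment in limma. HMGCS1, the cytosolic HMG-CoA synthase, differed by -0.09 within the FGF21 high group and by 0.68 within the FGF21 low group. Over 20 genes of fatty acid and triglyceride synthesis the medians were -0.17 and 0.10, and 4 had such an interaction, all with the smaller difference in the FGF21 high group. Over all transcripts, 400 of 20420 went this way, and none had an adjusted p under 0.05.

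Of 8 markers of stellate cells and fibroblasts, 5 had the smaller difference in the FGF21 high group at p under 0.05 without adjustment. Their mean lay between 7.00 and 7.22 in HSPA5 high cows of the FGF21 high group, against 7.07 to 7.64 in its HSPA5 low cows, and between 7.15 and 7.73 in HSPA5 high cows of the FGF21 low group, against 7.02 to 7.38 in its HSPA5 low cows.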
